A study of Mus musculus with 12 samples.

Results

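The genes that encode the subunits of the mitochondrial respiratory chain were followed in osteoblasts of mice given parathyroid hormone (PTH) and in cultured osteoblastic cells made to overexpress *Slpi*. They were chosen by name, as the *Nduf* genes of complex I, the *Sdh* genes of complex II, the *Uqcr* genes and *Cyc1* of complex III, the *Cox4* to *Cox8* genes of complex IV and the *Atp5* genes of complex V, with at least 1 FPKM in at least 1 of 12 libraries. FPKM is the number of sequenced fragments scaled to the length of the transcript and to the depth of the library. The rule gave 83 of the 25897 gene names in the data, 36 for complex I, 4 for complex II, 9 for complex III, 17 for complex IV and 17 for complex V. Of 85 matching names, *Cox7b2* and *Cox8c* stayed below 1 FPKM. Of the 83, 3 are no subunits. *Cox4nb* lies next to *Cox4i1* and serves a membrane complex of the endoplasmic reticulum, *Atp5s* is known as a coupling factor and *Atp5sl* as an assembly factor of complex I. *Ndufa4* was counted with complex I by its name, although its protein is now placed in complex IV.

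Of the 12 libraries, 6 came from female Col2.3-ECFP mice, in which a fragment of the type I collagen promoter drives cyan fluorescent protein in mature osteoblasts. The mice were 12 weeks old and received either vehicle or human PTH(1-34) at 40 µg/kg per day, on 5 days a week for 3 weeks, with 3 libraries in each group. Live ECFP+ cells without CD45 and lineage markers were sorted from digested bone 24 h after the last injection. The other 6 libraries came from MC3T3-E1, a clonal osteoblastic line from mouse calvaria, with 3 libraries of cells carrying an empty retroviral vector (mock) and 3 of cells carrying the same vector with *Slpi*, which encodes a secreted inhibitor of serine proteases, all selected with puromycin. The study's methods say of replicates in general that they were taken from separate mice, but the labels tie no library to an animal and name no separate cultures of MC3T3-E1, so that *p* values measure the spread between these libraries, which may be technical for the cell line.

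The respiratory chain passes electrons from NADH (complex I) and succinate (complex II) through complex III to oxygen at complex IV, and complexes I, III and IV pump protons across the inner mitochondrial membrane. Complex V, the ATP synthase, lets the protons return through a ring of c subunits and drives the synthesis of ATP in its F1 head. Most subunits are encoded in the nucleus, several of complex IV by a common and a tissue-specific gene, and the rest by mitochondrial DNA, whose genes were not analysed here. Osteoblasts are known to use both glycolysis and respiration, in proportions that change as they mature.

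Tests were made only within an experiment, since the tables were scaled separately, and levels set side by side across the 2 are descriptions. Pearson's r between libraries of a group, across genes, lay between 0.952 and 0.962 for vehicle, 0.908 and 0.946 for PTH, 0.984 and 0.987 for mock and 0.989 and 0.991 for *Slpi*. The *Slpi* transcript was read at 377, 396 and 386 FPKM in mock cells, against 2105, 1973 and 1848 FPKM in the cells carrying it. The 9 osteoblast markers (among them *Bglap*, *Ibsp* and *Alpl*) summed to between 12993 and 37996 FPKM in the sorted cells, and to between 6722 and 7474 FPKM in MC3T3-E1, where none was at 0. The wide range in the sorted cells was set by *Col1a2*, a chain of type I collagen, at 26655 and 24544 FPKM in vehicle replicates 1 and 2 and listed at 0 in the other 4 libraries, where the other 8 markers were above 0. PTH replicate 2 stood apart. Its 12 heart muscle markers summed to 3499.6 FPKM, led by *Nppa* and *Actc1*, against 4.84 to 22.9 FPKM in the other 5 osteoblast libraries. Member counts and medians with PTH, and some single-gene values, are also given without this library. Other single-gene values are given only with it.

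Respiratory chain genes were abundant in both kinds of cells. Together they held between 1.58% and 2.14% of all FPKM in an osteoblast library, with the highest share in PTH replicate 2. The totals of vehicle replicates 1 and 2 include the large *Col1a2* values given above, which the other osteoblast libraries lack, so these totals are not alike. In MC3T3-E1 the share was 2.69%, 2.68% and 2.73% in mock replicates 1, 2 and 3. It was 2.65%, 2.61% and 2.60% in *Slpi* replicates 1, 2 and 3, each below every mock library. None of 26 listed genes of the mitochondrial genome was named in either experiment, so no total includes them under these names. Per length, the most abundant in vehicle osteoblasts were *Atp5b*, the catalytic beta subunit of the F1 head, at 335 ± 29.2 FPKM (mean ± SD, n = 3), *Cox4i1*, the common form of subunit IV, at 280.4 ± 10.1 FPKM, and *Uqcrh*, the hinge protein of complex III, at 268 ± 10.3 FPKM. In mock cells the highest levels were those of *Atp5k*, a small membrane subunit of ATP synthase, at 611 ± 41.03 FPKM, *Ndufa4* at 548 ± 31.7 FPKM, *Cox8a*, the common form of subunit VIII, at 527 ± 15.7 FPKM and *Atp5b* at 517 ± 2.81 FPKM. In vehicle osteoblasts every *Atp5b* value lay above every *Cox4i1* value, while *Cox4i1* and *Uqcrh* overlapped, and in mock cells the neighbours in this order overlapped. The order of the members' mean levels was alike in the 2 kinds of cells (Spearman's rho of 0.873 between vehicle and mock over 76 genes, which are not independent replicates). *Ndufs5* was an exception, at no more than 0.0265 FPKM in every osteoblast library and between 41.2 and 82.7 FPKM in MC3T3-E1. Whether both tables rest on the same annotation is not given in the sources used here, so these 2 levels may not be comparable, and *Ndufs5* was not tested in osteoblasts.

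The promoters of the 3 genes that passed the test in both experiments, *Atp5g2*, *Cox6a1* and *Ndufv3*, and of *Sdhd*, which rose in MC3T3-E1 cells, are shown as the 250 bases before the RefSeq start (build GRCm38.p6), in the direction of the gene. Capitals mark the letters GCGCNTGCG, known from sites of the nuclear respiratory factor NRF1, and CCGGAAG, known from sites of ETS factors such as GABP, each searched on both strands, so that a match can also appear as its reverse complement, and overlapping matches of 1 motif were joined.
Atp5g2 (chr15:102671048-102671297, minus strand): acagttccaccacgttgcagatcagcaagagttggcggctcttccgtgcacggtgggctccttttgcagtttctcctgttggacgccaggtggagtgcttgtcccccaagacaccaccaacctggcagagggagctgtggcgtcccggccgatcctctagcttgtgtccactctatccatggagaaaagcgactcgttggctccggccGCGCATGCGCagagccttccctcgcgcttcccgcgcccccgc
Cox6a1 (chr5:115348959-115349208, minus strand): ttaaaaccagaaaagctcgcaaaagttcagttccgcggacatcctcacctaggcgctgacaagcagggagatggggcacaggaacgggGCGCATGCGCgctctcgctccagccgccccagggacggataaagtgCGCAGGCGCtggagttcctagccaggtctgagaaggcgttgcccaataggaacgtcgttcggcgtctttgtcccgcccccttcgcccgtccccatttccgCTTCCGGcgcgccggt
Ndufv3 (chr17:31519865-31520114, plus strand): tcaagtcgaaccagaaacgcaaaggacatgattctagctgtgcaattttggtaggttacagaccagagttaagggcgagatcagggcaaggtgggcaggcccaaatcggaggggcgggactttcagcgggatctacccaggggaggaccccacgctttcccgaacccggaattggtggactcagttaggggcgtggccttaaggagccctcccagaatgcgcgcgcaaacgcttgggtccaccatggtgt
Sdhd (chr9:50603850-50604099, minus strand): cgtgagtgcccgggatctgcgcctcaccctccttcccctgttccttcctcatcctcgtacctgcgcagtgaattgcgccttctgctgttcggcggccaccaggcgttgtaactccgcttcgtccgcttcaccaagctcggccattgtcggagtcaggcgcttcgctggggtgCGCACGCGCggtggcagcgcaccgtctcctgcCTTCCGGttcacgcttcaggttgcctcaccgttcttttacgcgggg
The match in *Atp5g2* began 42 bases before the start. *Cox6a1* held NRF1 letters 162 and 116 bases before the start and ETS letters 16 bases before it, and *Sdhd* held 1 match of each, 78 and 46 bases before the start. Neither motif was found in this window of *Ndufv3*. In the GENCODE M21 annotation the window of *Atp5g2* lies inside the span of its own gene, that of *Cox6a1* reaches into the start of its gene, and the other 2 lie before theirs.

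In the RefSeq promoter table, which covers 250 bases before to 50 bases after the start, 68 of the 83 genes had an entry. The NRF1 letters stood in 24 of them (35.3%), against 7.12% of 27025 promoters of all genes and 14.4% of the 10249 promoters of genes with at least 1 FPKM in a library. The ETS letters stood in 16 (23.5%, against 9.93% and 18.9%), and AAGATGGCG, letters known from sites of YY1, in 8 (11.8%, against 1.64% and 3.37%). The letters of the 3 motifs can overlap. A match is only a run of letters, and binding was not measured.

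With PTH, few respiratory chain genes changed, and they did so in both directions. Of 82 tested members, 5 rose (6.1%) and 3 fell (3.66%) at an adjusted *p* under 0.05 (limma on log2(FPKM + 1), Benjamini-Hochberg over 13004 genes), where 6.38% of all tested genes rose and 8.85% fell. The genes that rose were *Ndufa1*, *Atp5e*, *Cox6a1*, *Atp5g2* and *Atp5k*, and those that fell *Cox7a1*, *Ndufv3* and *Cox5b*. The median log2 fold change of the members was 0.010, beside 0.0066 over all tested genes. By library, the summed level of all tested members was 7487, 8099 and 7094 FPKM with vehicle and 7469.8, 9184 and 7299 FPKM with PTH, so that PTH replicate 2 stood above and the other 2 PTH libraries within the vehicle range. Only *Cox6b2* reached the study's rule of a 2-fold change at an unadjusted *p* under 0.05 (1.24% of all genes higher, 4.35% lower), and its log2 fold change was 0.80 without PTH replicate 2, below 2-fold. The groups did not overlap for 12 members that were higher and 10 that were lower with PTH (19.5% and 20.9% of all genes). In sorted bulk RNA, fewer cells of a type and less RNA per cell cannot be told apart.

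**Figure D1:**
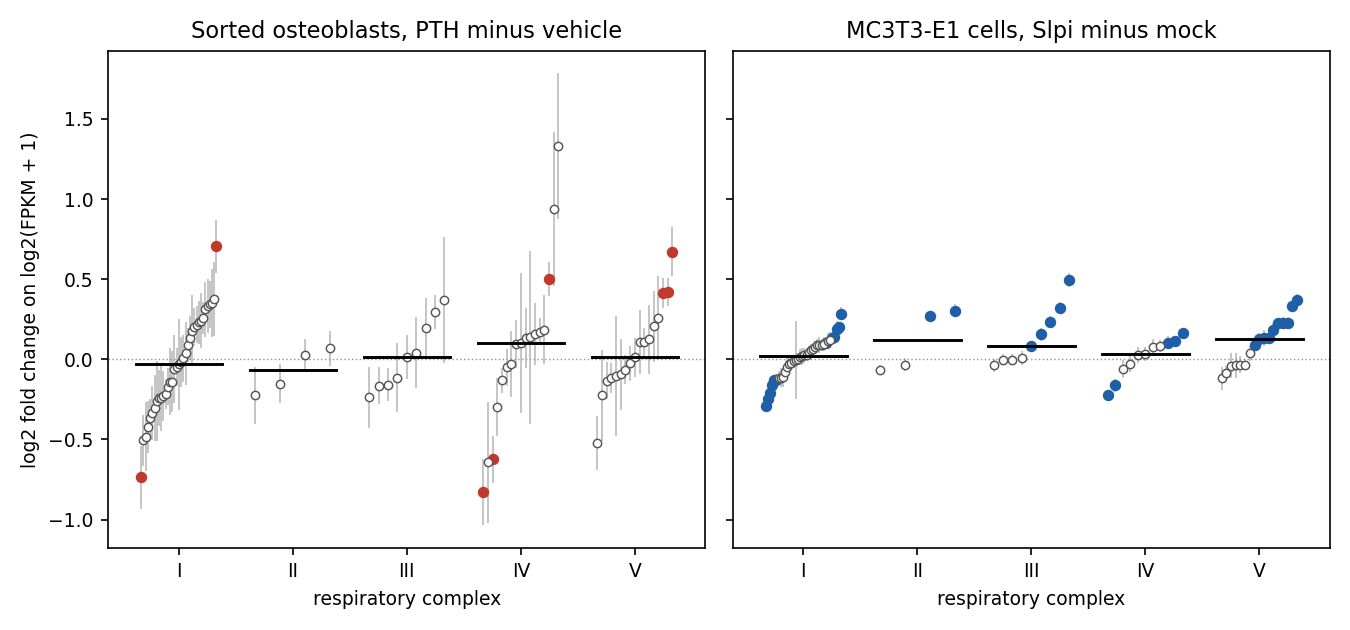
Log2 fold change of each tested respiratory chain gene, on the log2(FPKM + 1) scale, by complex (x axis), for PTH minus vehicle in sorted osteoblasts (left, 82 genes) and *Slpi* minus mock in MC3T3-E1 cells (right, 77 genes). Filled points passed an adjusted p of 0.05 in limma, open points did not, grey bars are standard errors and black lines the median of a complex; 8 points are filled on the left and 34 on the right, where 10 of the 17 complex V genes are filled and all 10 lie above 0.

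Log2 fold changes are given ± their standard errors. *Ndufa1*, a small membrane subunit of complex I encoded on the X chromosome (chrX:37187588-37191163, mm10), stood at 80.2, 89.95 and 116 FPKM in vehicle replicates 1, 2 and 3 and at 154, 134 and 177 FPKM in PTH replicates 1, 2 and 3. Each PTH library lay above every vehicle library, with a log2 fold change of 0.70 ± 0.16 and an adjusted *p* of 0.0359. *Atp5e*, the epsilon subunit of the central stalk of ATP synthase (chr2:174461072-174464105), stood at 203, 233 and 257 FPKM with vehicle and at 326, 337 and 449.6 FPKM with PTH. The groups were again apart, the highest value being that of PTH replicate 3, and the log2 fold change was 0.67 ± 0.15 (adjusted *p* = 0.0334). *Cox6a1*, the common form of subunit VIa of complex IV (chr5:115345642-115348981), stood at 213, 245 and 241 FPKM with vehicle and 328, 301 and 364 FPKM with PTH, a log2 fold change of 0.50 ± 0.11 (adjusted *p* = 0.0300). No vehicle library reached the lowest PTH library.

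Both other genes that rose belong to the membrane part of ATP synthase. *Atp5g2*, 1 of the 3 genes for the c subunit (chr15:102662864-102672352), stood at 144, 158 and 141 FPKM with vehicle and at 193, 204 and 196 FPKM with PTH. The PTH values were close together and all above vehicle, with a log2 fold change of 0.42 ± 0.087 (adjusted *p* = 0.0279). In *Atp5g2*, 35.8% of the 75-base stretches of its transcripts also occur in other annotated genes, among them processed pseudogenes, so its level is less certain. *Atp5k*, for the small subunit e (chr5:108433244-108434448), stood at 164, 179 and 182 FPKM with vehicle and 230.0, 252 and 219 FPKM with PTH. It too was higher in every PTH library, with a log2 fold change of 0.41 ± 0.095 (adjusted *p* = 0.0342). The other 2 genes of the c ring did not pass the test, with a log2 fold change of 0.26 for *Atp5g1* (adjusted *p* = 0.514) and -0.10 for *Atp5g3* (adjusted *p* = 0.866). Without PTH replicate 2 the log2 fold change of *Atp5g1* was -0.072.

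The genes that fell were a pair from complex IV and 1 from complex I. *Cox5b*, a nuclear-encoded subunit on the matrix side of complex IV (chr1:36691449-36693681), stood at 197, 210.3 and 176 FPKM with vehicle and at 135, 143 and 102 FPKM with PTH, all 3 PTH libraries lying below all 3 vehicle libraries (log2 fold change -0.63 ± 0.15, adjusted *p* = 0.0368). *Ndufv3*, an accessory subunit of the NADH-oxidizing part of complex I (chr17:31520115-31531331), stood at 85.1, 102 and 67.4 FPKM with vehicle and 59.5, 39.8 and 51.9 FPKM with PTH (log2 fold change -0.74 ± 0.20, adjusted *p* = 0.0475). Its lowest value was that of PTH replicate 2. *Cox7a1*, the form of subunit VIIa known from heart and skeletal muscle (chr7:30184144-30186078), stood at 10.9, 17.6 and 14.8 FPKM with vehicle and 7.07, 9.46 and 6.34 FPKM with PTH, again without overlap (log2 fold change -0.83 ± 0.21, adjusted *p* = 0.0407).

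**Figure D2:**
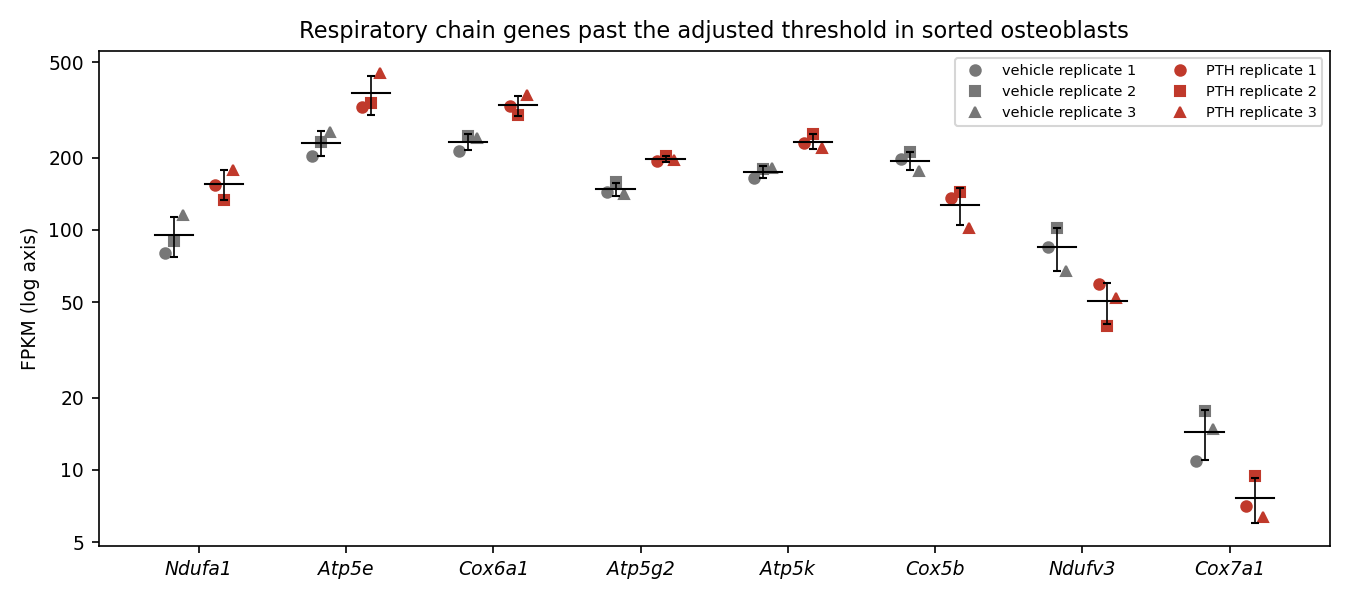
FPKM (log axis) of the 8 respiratory chain genes past an adjusted p of 0.05 in sorted osteoblasts, by gene; each point is 1 library, black lines are the mean and the SD of 3 libraries. For each of the 8 genes the 3 PTH libraries lie on 1 side of the 3 vehicle libraries, above them for the 5 genes on the left and below them for the 3 on the right.

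Several subunits of complex IV exist in a common and a tissue form, and the tissue forms were a small part of each pair in osteoblasts. *Cox7a1* made up 10.5%, 15.97% and 14.7% of the summed FPKM of *Cox7a1* and the common *Cox7a2* in vehicle replicates 1, 2 and 3, and 7.34%, 6.39% and 7.18% in the PTH replicates. The groups did not overlap. *Cox7a2* itself stood at 92.3, 92.4 and 85.6 FPKM with vehicle and 89.1, 138 and 81.9 FPKM with PTH (log2 fold change 0.16 ± 0.19, adjusted *p* = 0.595). *Cox4i2*, the form of subunit IV known to respond to low oxygen, stood at 3.32, 4.98 and 1.35 FPKM with vehicle and 6.47, 12.5 and 3.22 FPKM with PTH, with overlapping groups and a log2 fold change of 0.94 ± 0.48 (adjusted *p* = 0.218). It held between 0.498% and 3.65% of its pair with *Cox4i1*. *Cox6b2*, a form known from testis, was listed at 0 in vehicle replicates 1 and 2 and at 0.462 FPKM in replicate 3, against 1.11, 4.93 and 0.854 FPKM with PTH (log2 fold change 1.33 ± 0.46, adjusted *p* = 0.0923). Its largest value was that of PTH replicate 2, without which the adjusted *p* was 0.111. The muscle forms *Cox6a2* and *Cox8b* stayed at or below 2.59 FPKM, and *Cox7b2* was listed at 0 throughout.

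No gene of complex II or complex III passed the test in limma, and at an unadjusted *p* under 0.05 *Uqcrq* alone was higher and 0 were lower. *Sdhd*, a membrane anchor, had the smallest *p* in complex II, with 63.9, 59.4 and 54.1 FPKM for vehicle and 52.6, 62.3 and 38.8 FPKM for PTH (log2 fold change -0.23 ± 0.18, adjusted *p* = 0.397). The groups overlapped. *Uqcrq*, a small subunit of complex III that helps to bind ubiquinone, stood at 98.4, 99.02 and 94.00 FPKM with vehicle and 117, 108 and 135 FPKM with PTH (log2 fold change 0.30 ± 0.11, adjusted *p* = 0.103), without overlap. The median log2 fold changes by complex were -0.031 over 35 genes of complex I, -0.064 over 4 of complex II, 0.015 over 9 of complex III, 0.10 over 17 of complex IV and 0.013 over 17 of complex V. Without PTH replicate 2 all 5 were below 0, at -0.081, -0.12, -0.14, -0.075 and -0.083 in the same order. In complex I, none of the 7 subunits of the catalytic core passed, and their log2 fold changes ran from -0.26 for *Ndufs1* to 0.31 for *Ndufv1*. The members with the highest mean level in vehicle libraries in complexes I, III, IV and V did not pass either. *Ndufa4* stood at 155, 175 and 134 FPKM with vehicle and 125, 123.5 and 109 FPKM with PTH, lower in every PTH library but with an adjusted *p* of 0.0862 (log2 fold change -0.37 ± 0.12). The log2 fold change was -0.16 ± 0.10 for *Uqcrh* (adjusted *p* = 0.314), 0.17 ± 0.083 for *Cox4i1* (adjusted *p* = 0.194) and -0.095 ± 0.22 for *Atp5b* (adjusted *p* = 0.783).

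Several other members lay apart between the groups without passing. *Ndufa8*, an accessory subunit of complex I, stood at 66.3, 60.99 and 51.5 FPKM with vehicle and 46.4, 45.6 and 33.6 FPKM with PTH (log2 fold change -0.51 ± 0.16, adjusted *p* = 0.0723). *Ndufb3*, of the membrane arm of complex I, stood at 70.99, 52.1 and 47.3 FPKM with vehicle and 43.6, 43.5 and 37.5 FPKM with PTH (log2 fold change -0.42 ± 0.16, adjusted *p* = 0.119). Both had all PTH values below all vehicle values. *Ndufa6* and *Ndufa3*, also of complex I, had all PTH values above them, with log2 fold changes of 0.26 ± 0.098 (adjusted *p* = 0.119) and 0.34 ± 0.15 (adjusted *p* = 0.158). Among 35 genes of complex I the groups were apart with PTH higher in 4 and lower in 5, and among 17 of complex IV in 3 and 4, beside 19.5% higher and 20.9% lower of all tested genes.

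PTH replicate 2 had the highest value of the 6 libraries for 35 of the 82 members (42.7%), against 15.5% of all tested genes, and PTH replicate 3 the lowest for 37 (45.1%, against 26.6%). In 7 members the value of PTH replicate 2 exceeded every other library at least 1.5 times (8.54% of members, 3.28% of all genes), namely *Cox5a*, *Cyc1*, *Atp5g1*, *Atp5g3*, *Ndufs6*, *Cox4i2* and *Cox6b2*. *Cox5a*, a subunit of complex IV, stood at 105, 118 and 82.8 FPKM with vehicle and 80.3, 289 and 58.5 FPKM with PTH. *Cyc1*, the heme-bearing cytochrome c1 of complex III, stood at 56.6, 54.6 and 52.03 FPKM with vehicle and 53.2, 144 and 45.8 FPKM with PTH. In both genes PTH replicates 1 and 3 lay within or below the vehicle range. *Atp5g3*, the most abundant c ring gene in vehicle libraries, stood at 285, 283 and 225 FPKM with vehicle and 196, 471 and 159 FPKM with PTH. *Atp5g1* stood at 70.00, 64.99 and 64.2 FPKM with vehicle and 65.2, 126 and 61.02 FPKM with PTH, again with PTH replicate 2 alone above the rest.

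The muscle forms of complex IV were not raised in that library. In PTH replicate 2, *Cox6a2* stood at 0.277 FPKM, *Cox8b* at 0.803 FPKM and *Cox7a1* at 9.46 FPKM, against 0.495 to 2.59, 0 to 1.504 and 6.34 to 17.6 FPKM in the other 5 libraries. All 12 heart muscle markers were above 0 there, as they were in vehicle replicate 2, while 8 of 12 were at 0 in PTH replicate 3. Of these markers, *Myl7* and *Pln* stood at only 0.653 and 0.640 FPKM in PTH replicate 2. The 12 skeletal muscle markers summed to 468 FPKM in PTH replicate 2, against 3.04 to 9.44 FPKM in the other 5 libraries. Nearly all of this sum came from *Acta1*, *Myh7* and *Ckm*, at 314, 117 and 33.2 FPKM. Every other skeletal muscle marker stood at or below 2.175 FPKM in that library, among them *Myh1* and *Myh2*, and 3 were at 0. The part of these cells' RNA in the values of the respiratory chain genes was not tested. Without PTH replicate 2, 4 members rose and 3 fell (of which 4 and 2 also passed with it), while 674 of all tested genes rose and 895 fell. The median log2 fold change of the members was then -0.082 and that of all tested genes -0.0047. *Atp5k* (adjusted *p* = 0.0581) and *Ndufv3* (adjusted *p* = 0.080) no longer passed, and *Atp5c1*, the gamma subunit of the central stalk, passed as lower, with 145, 158 and 125 FPKM for vehicle and 99.2, 121 and 79.4 FPKM for PTH (adjusted *p* = 0.0790 with all 6 libraries).

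**Figure D3:**
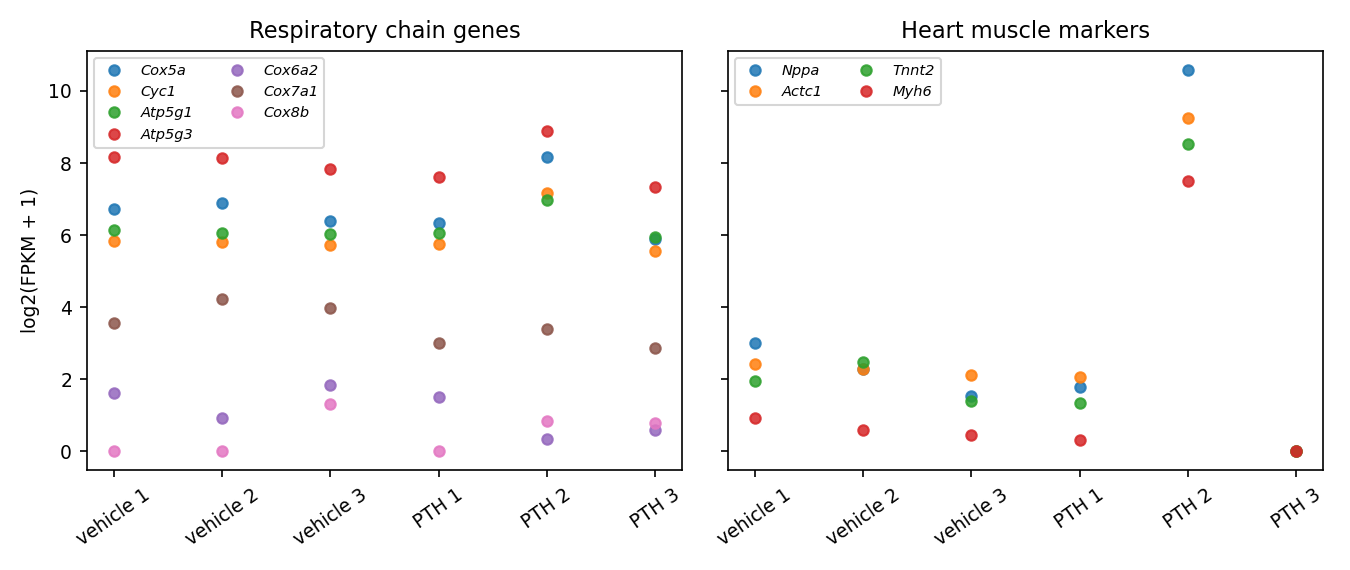
log2(FPKM + 1) by library (x axis) in sorted osteoblasts for 7 respiratory chain genes (left) and 4 heart muscle markers (right); each point is 1 library and colours mark genes. In PTH replicate 2, Nppa, Actc1, Tnnt2 and Myh6 stand far above the other 5 libraries and Cox5a, Cyc1, Atp5g1 and Atp5g3 above them too, while the muscle forms Cox7a1 and Cox8b lie within the range of the others and Cox6a2 below it.

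Markers of other cells moved with PTH too. The neutrophil markers, 10 of 11 of which were measured, summed to between 369 and 464 FPKM with vehicle and to 2329, 1949 and 680 FPKM in PTH replicates 1, 2 and 3, with 6 higher at an adjusted *p* under 0.05 and none at 0 in a library. The T cell markers summed to between 87.9 and 136 FPKM with vehicle and to between 0.716 and 17.8 FPKM with PTH, 4 of 5 tested genes being lower. The sort removed CD45+ cells, which include both kinds. Osteoclast markers summed to between 159 and 167 FPKM with vehicle and 262 and 295 FPKM with PTH, 1 of 3 tested being higher, and of the 9 osteoblast markers 2 were higher. Their part in the values of the respiratory chain genes was not tested.

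The scaling of the libraries and each single library bore on these calls. After quantile normalization, none of the 82 members was higher in limma (4 at an unadjusted *p* under 0.05) and 7 were lower, with a median log2 fold change of -0.17 for the members and 0.045 for all genes, and after centring each library on its median gene 5 were higher and 2 lower, with medians of 0.10 and 0.096. Of all tested genes, 862 were higher and 1063 lower after quantile normalization, and 1050 and 878 after centring. The 8 called genes kept their sign under both. Without vehicle replicate 1, vehicle replicate 2 or PTH replicate 1, no member passed (5, 7 and 7 higher and 3, 4 and 8 lower at an unadjusted *p* under 0.05), and of all tested genes 1, 0 and 172 were higher and 0, 0 and 405 lower. Without vehicle replicate 3, 2 members rose and 1 fell, and without PTH replicate 3, 4 rose and 1 fell. Over all tested genes these counts were 512 and 890, and 585 and 790. A permutation test of 3 libraries against 3 cannot go below a two-sided exact *p* of 0.10.

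In MC3T3-E1 cells overexpressing *Slpi*, respiratory chain genes rose about as often as other genes and by small amounts, and the share that fell was below that of all genes. Of 77 tested members, 26 rose (33.8%) and 8 fell (10.4%) at an adjusted *p* under 0.05, where 31.9% of all 11466 tested genes rose and 28.9% fell. The median log2 fold change of the members was 0.037 and that of all genes 0.0041, and no member changed 2-fold (0.75% of all genes were 2-fold higher and 0.384% 2-fold lower at an unadjusted *p* under 0.05). Groups did not overlap for 28 members that were higher and 10 that were lower (34.9% and 32.2% of all genes). Rises and falls were unevenly spread, with 10 and 0 in complex V, 5 and 0 in complex III, 2 and 0 in complex II, 3 and 2 in complex IV and 6 and 6 in complex I. This split moved with the scaling and with 1 library. It was 18 higher and 15 lower after quantile normalization, 20 and 9 after median centring, and 21 and 14 without *Slpi* replicate 1. Over all tested genes it was 3447 and 3428, 3391 and 3487, and 3628 and 3293 in the same order. *Slpi* replicate 1 had the highest value of the 6 libraries for 44 of the 77 members (57.1%, against 17.6% of all genes). Of the 9 osteoblast markers 8 were tested, with 5 higher and 1 lower in *Slpi* cells, and their part in these values was not tested. For complex V the split was 7 and 1, 7 and 0, and 7 and 2 in these 3 fits, and for complex I 4 and 10, 5 and 7, and 6 and 9.

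In complex V, 10 of the 17 genes rose and none fell, with a median log2 fold change of 0.13. Its summed level was 4978, 5013 and 5011 FPKM in mock and 5718, 5381 and 5277 FPKM in *Slpi* libraries. All genes together also summed to more in *Slpi* libraries (567905 to 599746 FPKM) than in mock libraries (541932 to 546285.5 FPKM). *Atp5b*, the catalytic beta subunit (chr10:128083273-128090391), stood at 516, 515 and 520.0 FPKM in mock replicates 1, 2 and 3 and at 666, 655 and 633 FPKM in *Slpi* replicates 1, 2 and 3. Every *Slpi* library lay well above every mock library (log2 fold change 0.33 ± 0.032, adjusted *p* = 5.46e-05). *Atp5g1*, a gene of the c ring, stood at 228, 239 and 225 FPKM in mock and 301, 307 and 285 FPKM in *Slpi* cells (log2 fold change 0.37 ± 0.040, adjusted *p* = 9.96e-05). *Atp5a1*, the alpha subunit that alternates with beta in the F1 head, stood at 234, 238 and 240.2 FPKM in mock and 287, 271 and 276 FPKM in *Slpi* cells (log2 fold change 0.23 ± 0.032, adjusted *p* = 4.55e-04). Neither gene had overlapping groups.

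By part of the enzyme, 3 of 5 genes of the F1 head and central stalk, 3 of 3 of the c ring, 3 of 4 of the peripheral stalk and 1 of 3 small membrane subunits rose. The other c ring genes had log2 fold changes of 0.23 for *Atp5g3* (adjusted *p* = 8.55e-04) and 0.092 for *Atp5g2* (adjusted *p* = 0.0407), the latter not past the threshold under either other scaling. *Atp5c1*, the gamma subunit, stood at 175, 190.1 and 184 FPKM in mock and 219, 211 and 213 FPKM in *Slpi* cells (log2 fold change 0.23 ± 0.038, adjusted *p* = 9.99e-04). In the peripheral stalk, which holds the F1 head in place, log2 fold changes were 0.19 ± 0.039 for *Atp5h* (subunit d, adjusted *p* = 0.00340), 0.13 ± 0.031 for *Atp5f1* (subunit b, adjusted *p* = 0.00572) and 0.13 ± 0.050 for *Atp5o* (adjusted *p* = 0.0498). Among the small membrane subunits, *Atp5j2*, subunit f, had a log2 fold change of 0.13 ± 0.041 (adjusted *p* = 0.0285). *Atp5o* lay at the threshold itself. Among the genes that did not pass were *Atp5d* and *Atp5e* of the central stalk, *Atp5j* of the peripheral stalk, and *Atp5k* and *Atp5l* in the membrane, with log2 fold changes between -0.084 and 0.037. *Atp5k*, the most abundant member in these cells, stood at 651, 613 and 569 FPKM in mock and 670.1, 577 and 544 FPKM in *Slpi* libraries, with wide overlap.

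In complex III, 5 of 9 genes rose and none fell. *Uqcr10*, a small subunit of complex III (chr11:4701973-4704342), had the largest rise of all members, from 92.8, 96.3 and 99.4 FPKM in mock to 143, 136 and 129 FPKM in *Slpi* cells (log2 fold change 0.50 ± 0.046, adjusted *p* = 4.70e-05). *Cyc1* stood at 84.6, 86.6 and 85.1 FPKM in mock and 110.4, 109 and 102 FPKM in *Slpi* cells (log2 fold change 0.32 ± 0.037, adjusted *p* = 1.39e-04). The core protein gene *Uqcrc2* stood at 51.4, 55.4 and 52.2 FPKM in mock and 61.6, 63.6 and 61.97 FPKM in *Slpi* cells (log2 fold change 0.23 ± 0.037, adjusted *p* = 8.26e-04). In all 3 the groups lay apart. Its partner *Uqcrc1* had a log2 fold change of -0.0018 (adjusted *p* = 0.967), and the Rieske iron-sulfur protein gene *Uqcrfs1* one of 0.085 (adjusted *p* = 0.0409). *Uqcrq* also rose (log2 fold change 0.16 ± 0.040, adjusted *p* = 0.00914), while *Uqcrh*, *Uqcrb* and *Uqcr11* did not pass, with log2 fold changes of -0.038, -0.0023 and 0.0070.

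In complex II, 1 catalytic subunit and 1 membrane anchor rose. *Sdhb*, the iron-sulfur subunit, stood at 70.9, 75.6 and 73.8 FPKM in mock and 94.8, 90.6 and 87.3 FPKM in *Slpi* cells (log2 fold change 0.30 ± 0.041, adjusted *p* = 3.12e-04). *Sdhd*, the anchor gene whose promoter held an NRF1 and an ETS match, stood at 74.5, 78.1 and 74.4 FPKM in mock and 91.8, 93.9 and 88.1 FPKM in *Slpi* cells (log2 fold change 0.27 ± 0.036, adjusted *p* = 3.43e-04). Both were higher in every *Slpi* library. The other 2 genes did not pass, with log2 fold changes of -0.068 for the flavoprotein *Sdha* (adjusted *p* = 0.104) and -0.033 for the anchor *Sdhc* (adjusted *p* = 0.494).

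Of the 36 genes of complex I, 6 rose and 6 fell, and the rises included those of *Ndufs1*, *Ndufv2* and *Ndufv1*, which form the part that oxidizes NADH. *Ndufs1* stood at 28.4, 28.7 and 29.1 FPKM in mock and 36.9, 35.004 and 33.6 FPKM in *Slpi* cells (log2 fold change 0.28 ± 0.041, adjusted *p* = 4.44e-04). *Ndufv2* stood at 67.6, 70.4 and 68.1 FPKM in mock and 79.97, 79.7 and 78.2 FPKM in *Slpi* cells (log2 fold change 0.20 ± 0.031, adjusted *p* = 5.86e-04). Both were higher in every *Slpi* library, whereas *Ndufv1* rose by less (log2 fold change 0.10 ± 0.033, adjusted *p* = 0.0271). Among the genes that fell was *Ndufs7*, an iron-sulfur subunit, with a log2 fold change of -0.13 ± 0.037 (adjusted *p* = 0.0137). *Ndufs3* and *Ndufs8* had log2 fold changes of -0.026 and -0.013 and did not pass.

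Of the members called, *Ndufv3*, an accessory subunit, fell most, from 163, 165 and 167 FPKM in mock to 138, 135 and 131 FPKM in *Slpi* cells (log2 fold change -0.29 ± 0.031, adjusted *p* = 9.90e-05). *Ndufa6* stood at 67.8, 70.1 and 70.5 FPKM in mock and 61.5, 59.4 and 58.6 FPKM in *Slpi* cells (log2 fold change -0.21 ± 0.033, adjusted *p* = 7.36e-04), and its groups were apart. *Ndufb2*, of the membrane arm, stood at 116, 111 and 109 FPKM in mock and 97.8, 87.1 and 98.4 FPKM in *Slpi* cells (log2 fold change -0.25 ± 0.051, adjusted *p* = 0.00305). All *Slpi* values of these 3 genes lay below all mock values, as they did for *Ndufa2* (log2 fold change -0.16 ± 0.051, adjusted *p* = 0.0239). *Ndufa9*, which rose, stood at 66.7, 68.9 and 67.6 FPKM in mock and 75.98, 73.96 and 73.3 FPKM in *Slpi* cells (log2 fold change 0.13 ± 0.031, adjusted *p* = 0.00573). Also higher were *Ndufa8* (log2 fold change 0.19 ± 0.053, adjusted *p* = 0.0149) and *Ndufb6* (log2 fold change 0.14 ± 0.039, adjusted *p* = 0.0134). *Ndufs5*, at 70.4, 73.00 and 51.8 FPKM in mock and 82.7, 77.2 and 41.2 FPKM in *Slpi* cells, varied more within each group than between them (log2 fold change -0.0048 ± 0.24, adjusted *p* = 0.989). *Ndufb2* is 1 of 25 members that overlap another coding gene, as do *Atp5a1*, *Atp5f1*, *Cox4i1*, *Ndufs1*, *Uqcrc2*, *Ndufa2* and *Ndufb6*. Whether the counting used strand is not given in the sources used here.

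**Figure D4:**
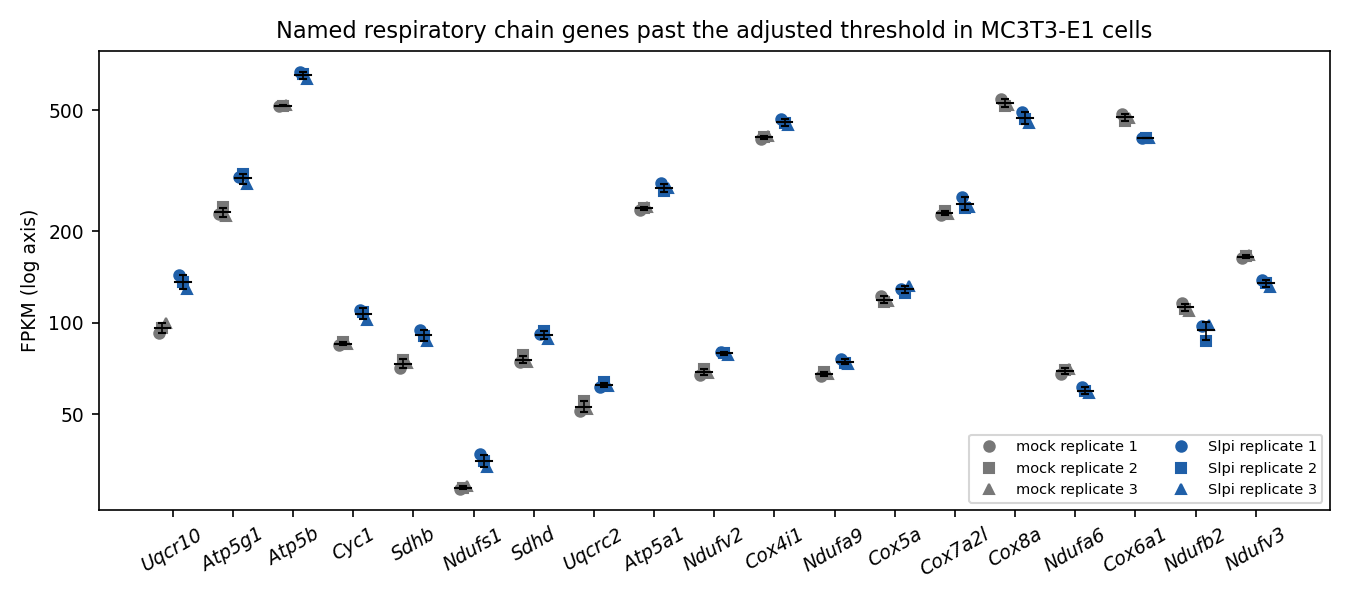
FPKM (log axis) of 19 named respiratory chain genes past an adjusted p of 0.05 in MC3T3-E1 cells, by gene in order of the log2 fold change; each point is 1 library, black lines are the mean and the SD of 3 libraries. The 14 genes on the left are higher in all 3 Slpi libraries than in all 3 mock libraries and the 5 on the right lower; the shifts are small beside the differences in level between genes.

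In complex IV, 3 of 11 tested genes rose and 2 fell. *Cox4i1* stood at 401, 406 and 411 FPKM in mock and 467, 454 and 445 FPKM in *Slpi* cells (log2 fold change 0.16 ± 0.031, adjusted *p* = 0.00216). *Cox6a1* stood at 487, 459.8 and 471 FPKM in mock and 406, 405 and 404 FPKM in *Slpi* cells (log2 fold change -0.22 ± 0.032, adjusted *p* = 4.43e-04). The former was higher and the latter lower in every *Slpi* library. *Cox8a* fell from 545, 516 and 520.4 FPKM to 493, 466 and 454 FPKM (log2 fold change -0.16 ± 0.040, adjusted *p* = 0.00817). *Cox5a* and *Cox7a2l*, the latter known to help join complexes III and IV, rose by 0.11 and 0.10 on the log2 scale (adjusted *p* = 0.0191 and 0.0463). The tissue forms were all but absent from these cells. *Cox6b2* and *Cox8b* were listed at 0 in all 6 libraries, *Cox4i2*, *Cox6a2* and *Cox7a1* did not exceed 0.516 FPKM, and none held over 0.386% of its pair.

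Across the 14 other fits, 16 of the 26 genes that rose and 5 of the 8 that fell passed in every one. The number of all tested genes that passed in every fit is not given here, so these counts have no background beside them. The genes that rose in all of them were *Atp5a1*, *Atp5b*, *Atp5c1*, *Atp5f1*, *Atp5g1*, *Atp5g3* and *Atp5h* of complex V, *Cyc1*, *Uqcr10*, *Uqcrc2* and *Uqcrq* of complex III, *Sdhb* and *Sdhd*, *Ndufs1* and *Ndufv2*, and *Cox4i1*. Those that fell in all of them were *Ndufv3*, *Ndufa6*, *Ndufb2*, *Cox6a1* and *Cox8a*. All 34 called genes kept their sign throughout. Some levels are less certain, since 37 of the 83 genes share a 75-base stretch, the length of a read, with another annotated gene. Such genes include processed pseudogenes as well as overlapping or neighbouring genes, and both strands were compared. Over 10% of the stretches were shared in 18 members, among them *Atp5h*, *Atp5f1*, *Atp5o*, *Uqcrc2* and *Cox5a*.

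In all, 3 genes passed the test in both experiments. *Atp5g2* rose with PTH and in *Slpi* cells, *Ndufv3* fell in both, and *Cox6a1* rose with PTH and fell in *Slpi* cells. *Cox6a1* had a log2 fold change of 0.50 ± 0.11 with PTH and -0.22 ± 0.032 in *Slpi* cells, and *Ndufv3* one of -0.74 ± 0.20 and -0.29 ± 0.031. The log2 fold changes of the 76 genes tested in both had a Spearman's rho of -0.23 across genes, which are not independent replicates. No library is shared between the experiments, and a difference between their effects was not tested.

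**Figure D5:**
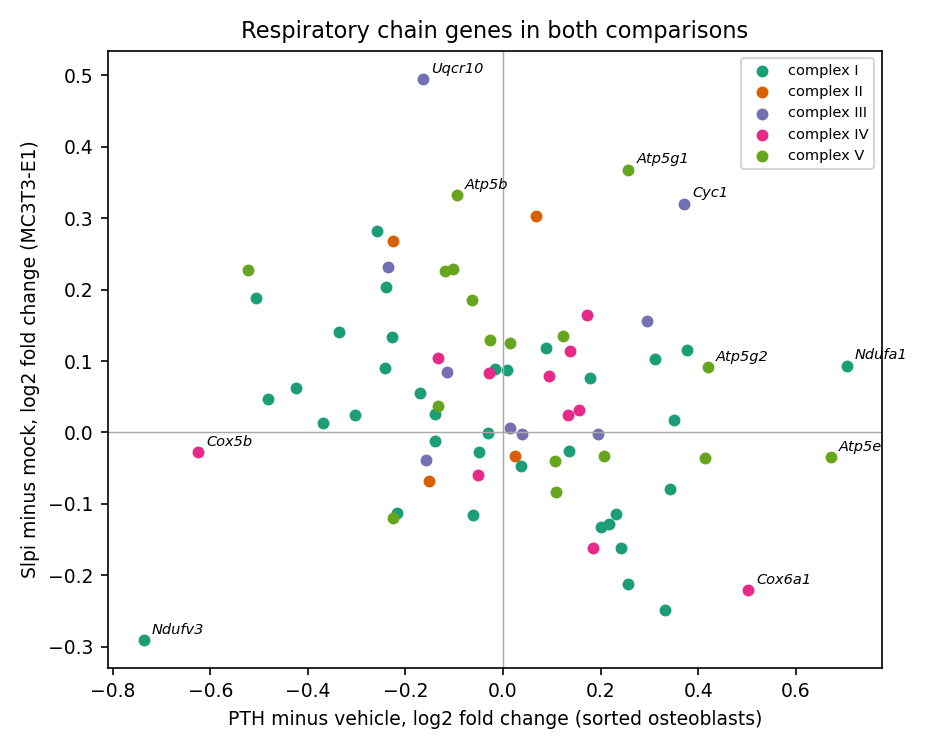
Log2 fold change of 76 respiratory chain genes in sorted osteoblasts (x axis, PTH minus vehicle) and in MC3T3-E1 cells (y axis, Slpi minus mock), both on the log2(FPKM + 1) scale; each point is 1 gene and colours mark the complex. Ndufv3 lies low on both axes and Atp5g2 above 0 on both, Cox6a1 lies at 0.50 on the x axis and at -0.22 on the y axis, and the axes differ in range.

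Shorter members had the higher median with PTH and the lower one in *Slpi* cells. With PTH, the median log2 fold change of the 30 members with transcripts under 600 bases was 0.12 (4 higher, 1 lower), and that of the 52 longer ones was -0.050 (1 higher, 2 lower). Over all tested genes it was 0.041 for 490 short transcripts (41 higher, 38 lower) and 0.0054 for 11944 longer ones (772 higher, 1078 lower). In MC3T3-E1 cells, the 27 shorter members had a median of 0.0070, with 4 higher and 4 lower, and the 50 longer ones one of 0.084, with 22 higher and 4 lower. Over all tested genes there, 393 short transcripts had a median of 0.018, with 123 higher and 103 lower, and 10606 longer ones one of 0.0058, with 3453 higher and 3087 lower. Spearman's rho with length was -0.19 and 0.21 over the members and 0.013 in both over all tested genes. With GC content it was 0.30 and -0.23 over the members, and 0.22 and -0.18 over all genes, and genes of a table share its libraries. The part of length and GC content in the members' changes was not tested.

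Motif matches stood before genes that rose, fell and were not called. In MC3T3-E1 cells, 8 of the 20 genes that rose and had a promoter entry held the NRF1 letters, as did 2 of 6 that fell and 14 of 39 that were not called. With PTH it was 3 of 5 that rose (*Atp5g2*, *Atp5k* and *Cox6a1*), 0 of 3 that fell and 20 of 59 not called. The promoter of *Cox6a1*, with its NRF1 and ETS letters, thus belongs to a gene that rose in one experiment and fell in the other, and that of *Ndufv3*, without either, to a gene that fell in both.

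Genes that serve the same chain outside the naming rule were counted from lists chosen with earlier results of these data known. Of 6 further subunit genes tested in osteoblasts none passed (limma, 2 higher and 0 lower at an unadjusted *p* under 0.05), and 3 of 4 rose in MC3T3-E1 cells, led by *Cycs*, the mobile carrier cytochrome c, which stood at 28.4, 28.2 and 29.4 FPKM in mock and 40.9, 43.4 and 39.9 FPKM in *Slpi* cells (log2 fold change 0.51 ± 0.040, adjusted *p* = 2.20e-05). Among assembly factors in MC3T3-E1 cells, the counts were 7 higher and 3 lower of 15 for complex I, 0 and 3 of 4 for complex II, 2 and 1 of 6 for complex III, 6 and 6 of 23 for complex IV and 2 and 2 of 5 for complex V, beside 31.9% higher and 28.9% lower of all tested genes. *Ecsit*, for complex I, rose by 0.66 on the log2 scale (adjusted *p* = 6.62e-05), while *Ndufaf3*, for the same complex, stood at 12.2, 12.4 and 11.95 FPKM in mock and 8.096, 7.096 and 7.23 FPKM in *Slpi* cells (log2 fold change -0.64 ± 0.054, adjusted *p* = 3.05e-05). *Sdhaf1*, a factor for the iron-sulfur subunit of complex II, whose own gene *Sdhb* rose, had a log2 fold change of -0.37 ± 0.068 (adjusted *p* = 0.00186). In osteoblasts, 1 of 11 assembly factors of complex I and 1 of 16 of complex IV were lower with PTH, and none was higher in limma (0 at an unadjusted *p* under 0.05). They were *Ndufaf4* (log2 fold change -0.81 ± 0.19, adjusted *p* = 0.0364) and *Surf1*, needed to assemble complex IV (log2 fold change -0.39 ± 0.10, adjusted *p* = 0.0477).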

How the data were processed

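RNA sequencing was performed on 3 vehicle and 3 PTH libraries of sorted osteoblasts and on 3 mock and 3 *Slpi* libraries of MC3T3-E1 cells. The authors deposited gene-level FPKM values for each library. According to the methods and the submitters' processing notes, single-end reads of 75 bases were aligned to mm10 with TopHat2 2.0.13, Bowtie2 2.2.3 and SAMtools 0.1.19 and quantified with Cufflinks 2.2.1. The annotation, the scaling between libraries and the use of strand are not given in the sources used here. FPKM gives no read count, so the depth behind a value is unknown. The labels and the methods name different library kits for MC3T3-E1 cells.

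Genes that reached 1 FPKM in any of the 6 libraries of an experiment were tested with limma 3.58.1 (R 4.3.3, empirical Bayes with a trend) on log2(FPKM + 1), a scale that understates the change of low genes, with Benjamini-Hochberg adjustment over all genes tested and a threshold of 0.05. Groups were taken from the labels. The fit was tested on simulated data. Members and gene lists were chosen with earlier results of these data known. Genes named were, per complex and direction, up to 3 called members with the smallest *p*, the most abundant member and the tissue isoform pairs, and further members were named after their values were seen. Positions are those of mm10 in GENCODE M21, and promoters are those of RefSeq. Tables and plots were made with Python 3.11.15, pandas 2.3.3, numpy 2.4.6, scipy 1.17.1 and matplotlib 3.10.9. Alternatives were another filter, pseudocount, variance model and scaling, the replicate number as a block, and leaving out each library. Some single-gene results are not reported here.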

Additional observations from a re-analysis of the deposited data

How the results depend on the processing

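The osteoblast calls were fragile and the MC3T3-E1 calls less so. With PTH, 5 members were higher and 3 lower. These counts were 3 and 0 without a filter on low values, 0 and 0 without a trend in the variances (6 and 6 at an unadjusted *p* under 0.05), 0 and 0 in an unmoderated linear model (8 and 7), and 0 and 7 after quantile normalization, where the median log2 fold change of the members was -0.17. Over all tested genes, the counts were 517 and 793 without the filter and 593 and 970 without the trend. They were 0 and 1 in the unmoderated model, where almost no gene could be called, and 862 and 1063 after quantile normalization. Leaving out each library in turn gave 0 to 4 members higher and 0 to 3 lower, and 0 to 674 and 0 to 895 of all tested genes. In *Slpi* cells, 26 members were higher and 8 lower, and quantile normalization gave 18 and 15 (3447 and 3428 of all tested genes). Leaving out each library gave 19 to 25 members higher and 6 to 14 lower, and 3208 to 3628 and 2922 to 3293 of all tested genes. The causes were not tested. Same-numbered libraries did not deviate together (r of 0.029, 0.073 and 0.10 for PTH and 0.039, -0.052 and -0.00026 for *Slpi*), and with the replicate number as a block 6 members were higher and 5 lower with PTH and 24 and 10 in *Slpi* cells. Over all tested genes the block gave 1028 higher and 1234 lower with PTH, and 3752 and 3420 in *Slpi* cells. Over the named genes, 266 values kept their side of the threshold with PTH and 349 in *Slpi* cells. Among these, 16 and 13 uncalled values changed sign. Another 63 and 15 lost the call and 5 and 0 gained it, and no called value changed sign. With no counts, the depth could not be weighed.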

Other observations

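Other mitochondrial genes were counted in MC3T3-E1 cells, where 31.9% of all tested genes were higher and 28.9% lower. Of 18 genes of the tricarboxylic acid cycle and of pyruvate oxidation, 12 were higher and 0 lower in *Slpi* cells at an adjusted *p* under 0.05 in limma (12 and 0 at an unadjusted *p* under 0.05), with a median log2 fold change of 0.14. *Cs*, citrate synthase, stood at 106, 111 and 111 FPKM in mock and 138, 136 and 133 FPKM in *Slpi* cells (log2 fold change 0.30 ± 0.033, adjusted *p* = 1.07e-04), and *Idh3a*, a subunit of isocitrate dehydrogenase, at 22.8, 23.8 and 24.02 FPKM in mock and 32.4, 35.2 and 32.2 FPKM in *Slpi* cells (log2 fold change 0.48 ± 0.044, adjusted *p* = 4.62e-05). Of 8 carriers and channels, 7 were higher and 0 lower (7 and 0 unadjusted), led by *Slc25a5*, an ADP/ATP carrier, at 237, 248 and 249 FPKM in mock and 409.7, 411 and 389.8 FPKM in *Slpi* cells (log2 fold change 0.72 ± 0.036, adjusted *p* = 2.97e-06). Of 18 regulators of mitochondrial gene expression, 11 were higher and 0 lower (11 and 0 unadjusted), among them *Pprc1*, a coactivator, with a log2 fold change of 0.44 ± 0.040 (adjusted *p* = 4.29e-05), and *Nrf1*, whose product binds the letters searched in the promoters, at 11.6, 12.2 and 12.2 FPKM in mock and 15.5, 15.7 and 14.96 FPKM in *Slpi* cells (log2 fold change 0.33 ± 0.041, adjusted *p* = 2.07e-04).

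In osteoblasts, 6.38% of all tested genes were higher and 8.85% lower with PTH. In the same lists, 1 of 18 cycle genes was higher and 1 lower, 0 of 7 carriers passed (0 higher and 1 lower at an unadjusted *p* under 0.05) and 2 of 20 regulators were lower. *Idh3a*, higher in *Slpi* cells, was lower with PTH, at 27.4, 27.1 and 23.4 FPKM in vehicle and 15.7, 15.6 and 9.35 FPKM in PTH libraries (log2 fold change -0.92 ± 0.20, adjusted *p* = 0.0308). *Idh2*, the mitochondrial NADP-dependent enzyme, stood at 29.00, 31.4 and 37.1 FPKM with vehicle and 48.1, 105 and 58.3 FPKM with PTH, with its highest value in PTH replicate 2 (log2 fold change 1.02 ± 0.28, adjusted *p* = 0.0491). *Tfam*, which packages mitochondrial DNA, was lower with PTH (log2 fold change -0.64 ± 0.14, adjusted *p* = 0.0328) and higher in *Slpi* cells (log2 fold change 0.22 ± 0.053, adjusted *p* = 0.00706). *Nrf1* and *Tfam* in *Slpi* cells were named after their values were seen, and the difference between the experiments was not tested.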
